A study of Mus musculus with 8 samples.

Results

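The 8 genes described here encode interleukin 1 alpha (Il1a), interleukin 1 beta (Il1b), the interleukin 1 receptor antagonist (Il1rn), interleukin 18 (Il18), the interleukin 18 binding protein (Il18bp), both interleukin 1 receptors (Il1r1 and Il1r2) and the receptors' shared accessory protein (Il1rap). They were chosen by name, with earlier results of these data known. All 8 were found among the 43346 genes of a count table for polyadenylated RNA from mouse macrophages. The 8 libraries fall into 6 groups of 3 cell types. Bone-marrow-derived macrophages (BMDM), grown from marrow in L929-conditioned medium, had 2 libraries without stimulus and 2 after 3 h of lipopolysaccharide (LPS), the bacterial cell-wall component sensed by Toll-like receptor 4. The cells labelled hMPDM, a name that the labels do not spell out, and RAW 264.7 (RAW), a transformed mouse macrophage line, had 1 library in each state. Unstimulated libraries are called rest below. No genotype, strain, age or LPS dose was given in the sources used here, and nothing there shows whether the paired BMDM libraries came from different cultures. Their p-values therefore reflect only how far these libraries spread, which may be technical.

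Interleukin 1 alpha and beta are alarm cytokines that bind the same receptor, IL1R1, which signals only after IL1RAP joins it. Their action is held in check by IL1RN, which occupies IL1R1 without recruiting IL1RAP and is made in secreted and intracellular forms from alternative first exons, and by IL1R2, a decoy receptor that lacks the signalling domain. Interleukin 18 is a related cytokine that acts mainly on lymphocytes to raise interferon gamma, and the soluble protein IL18BP captures it. Interleukin 1 beta and interleukin 18 are made as precursors that inflammasomes and caspase 1 activate. The libraries report messenger RNA only, and say nothing of the precursors, their cleavage or their release.

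On the mm10 genome, the deposited table places Il1a (ENSMUSG00000027399.1) at chr2:129299610-129309972 and Il1b (ENSMUSG00000027398.9) at chr2:129364570-129371139, both on the minus strand, and Il1rn (ENSMUSG00000026981.11) at chr2:24336853-24351494 on the plus strand. Il18 (ENSMUSG00000039217.8) lies at chr9:50575273-50581837 on the plus strand and Il18bp (ENSMUSG00000070427.3) at chr7:102015079-102018155 on the minus strand. The receptor genes Il1r2 (ENSMUSG00000026073.9, chr1:40074079-40125231) and Il1r1 (ENSMUSG00000026072.8, chr1:40225080-40317257) lie near each other on the plus strand, and Il1rap (ENSMUSG00000022514.10) is at chr16:26581704-26730117, also on the plus strand. Each value counts reads over all exons of a gene, so the secreted and intracellular forms of Il1rn are added together.

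The upstream sequences of Il1a, Il1b and Il1rn are shown because these were the members with the largest counts after LPS. Each is the 250 bases before a RefSeq start on GRCm38.p6, the assembly behind mm10, read 5′ to 3′ on the gene's own strand. Capitals mark matches to TATAAA, searched on the gene's strand, and to TGANTCA, the AP-1 consensus, searched on both strands.
Il1a (chr2:129309973-129310222, minus): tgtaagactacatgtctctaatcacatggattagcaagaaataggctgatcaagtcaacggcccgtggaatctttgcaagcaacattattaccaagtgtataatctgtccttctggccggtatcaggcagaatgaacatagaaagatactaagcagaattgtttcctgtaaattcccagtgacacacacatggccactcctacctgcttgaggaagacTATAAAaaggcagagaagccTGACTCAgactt
Il1b (chr2:129371140-129371389, minus): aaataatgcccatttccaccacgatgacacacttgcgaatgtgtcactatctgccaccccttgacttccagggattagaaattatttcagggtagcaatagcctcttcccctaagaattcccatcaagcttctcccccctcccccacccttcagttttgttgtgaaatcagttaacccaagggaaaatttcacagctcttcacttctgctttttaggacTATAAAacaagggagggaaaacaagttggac
Il1rn (chr2:24336610-24336859, plus): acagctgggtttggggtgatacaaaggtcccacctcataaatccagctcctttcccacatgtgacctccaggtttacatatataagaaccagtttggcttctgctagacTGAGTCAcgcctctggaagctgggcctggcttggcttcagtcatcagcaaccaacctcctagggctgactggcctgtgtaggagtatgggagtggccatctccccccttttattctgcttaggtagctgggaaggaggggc
TATAAA stands 32 bases before the start of Il1a and 31 bases before that of Il1b, and TGANTCA begins 12 bases before the start of Il1a and 141 bases before that of Il1rn. Of 32851 upstream windows of the same length, 7.59% hold TATAAA and 6.75% hold TGANTCA, so such matches are not rare. The NF-kB consensus (7.25% of windows), the C/EBP form TTGCNNAA (9.56%) and the interferon-type form GAAANNGAA (7.13%), each searched on both strands, have no match in these 3 windows. The Il1rn window is that of the RefSeq start nearest the start of the deposited gene. Further RefSeq starts of Il1rn, with windows at chr2:24345041-24345290 and chr2:24345121-24345370, had no match to any of these forms. Which start these cells used was not tested.

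Total counts per library ran from 3116434 in RAW at rest to 19307312 in a BMDM library at rest. The 8 macrophage markers were present in every cell type, summing to 14484 to 17147 CPM (the gene's counts scaled to a fixed library total). Markers of fibroblasts, T and NK cells, mast cells and erythroid cells summed to at most 0.453 CPM, B-cell markers to at most 1.55 CPM and dendritic-cell markers to at most 2.93 CPM. The 10 neutrophil markers summed to 68.0 and 73.1 CPM in resting BMDM and to 115 and 112 CPM in stimulated BMDM, to 40.9 and 98.6 CPM in hMPDM, and to 16.0 and 13.1 CPM in RAW. Most of that was Csf3r, S100a8 and S100a9, while the defining neutrophil gene Ly6g reached at most 0.0484 CPM. Over 15 genes chosen as expressed in BMDM and at no more than 5% of the BMDM level in unstimulated hMPDM, none of them a member, the LPS library of hMPDM held 10.8% of the level in BMDM after LPS. The resting library held 1.38%, a low value that the choice of genes fixes, so the pair is a description and no test that the LPS library differs. Results from that library are also given after a matching share of the BMDM profile was taken out of its counts.

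Il1a and Il1b were close to silent in resting BMDM and rose more than any other member after LPS. Levels are CPM scaled by the trimmed mean of M values (TMM). Il1b levels were 2.15 and 1.45 CPM in the resting libraries, and 555 and 553 CPM in the stimulated ones, means of 1.80 ± 0.494 and 554 ± 1.53 (SD, n = 2). The states do not overlap, and both stimulated libraries lie together. In such bulk RNA, more cells expressing a gene and more RNA per cell cannot be told apart. This was a log2 change of 8.28 (SE 0.0769, edgeR adjusted p = 1.46e-35). For Il1a the resting libraries held 1.73 and 1.45 CPM, the stimulated ones 227 and 215 CPM, means of 1.59 ± 0.198 and 221 ± 8.78 (SD, n = 2). Again the states are far apart, with a log2 change of 7.11 (SE 0.0900, edgeR adjusted p = 2.31e-32). Over the whole transcriptome 31.7% of the 12461 genes tested were called higher after LPS in BMDM and 31.1% lower, at an adjusted p under 0.05, and 5 of the 8 members were called higher and 0 lower. The members' median log2 change was 1.50, against -0.02 over all genes tested.

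The hMPDM library without stimulus held Il1b at 1.68 CPM and Il1a at 1.62 CPM, and the LPS library held them at 310 and 141 CPM. With 1 library a state these responses have no replicate check and no test. Their ratios were 184 for Il1b (95% exact interval 127 to 278) and 87.1 for Il1a (59.3 to 133), and intervals of this kind cover counting error only. The resting levels lie between those of the BMDM libraries, and the stimulated levels lie below them for both cytokines. Unstimulated RAW had Il1b at 0.785 CPM, which is 3 counts, and stimulated RAW at 118 CPM (ratio 150.2, 51.1 to 731). For Il1a the RAW libraries held 3.92 CPM without and 38.1 CPM with LPS (ratio 9.71, 5.73 to 17.7). RAW thus has the highest resting Il1a of the cell types and the lowest stimulated Il1a.

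**Figure D1:**
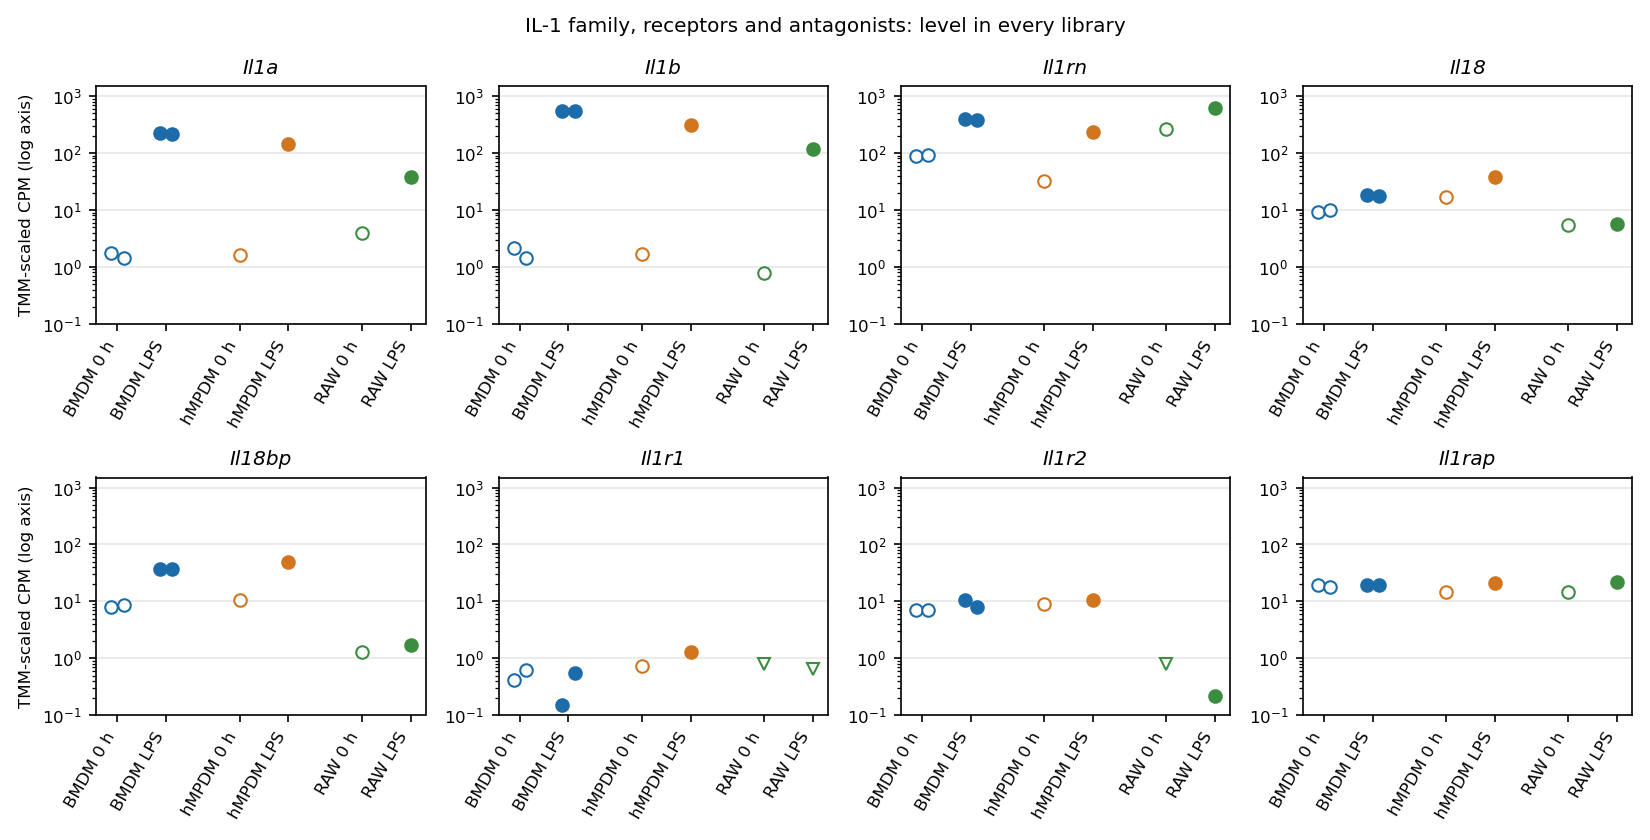
Level of each of the 8 members in each library (CPM scaled by TMM, log axis), with the cell types and states along the horizontal axis and 1 point per library. Triangles are libraries with 0 counts, drawn at the level that 3 counts would give. Il1b goes from 2.15 and 1.45 CPM to 555 and 553 CPM in BMDM, whereas Il1rap stays between 14.4 and 22.0 CPM in all 8 libraries.

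Against BMDM, the hMPDM library after LPS held less Il1a (log2 difference -0.64, SE 0.0693, edgeR adjusted p = 1.60e-08) and less Il1b (log2 difference -0.84, SE 0.0547, edgeR adjusted p = 3.50e-13). All tests of hMPDM or RAW assume that the lone library varies as the BMDM pairs do. With the BMDM share taken out, which removed 16.8% of the Il1a counts and 19.3% of the Il1b counts, the differences were -0.74 and -0.99. At rest neither cytokine passed the test between these cell types, with log2 differences of 0.04 (SE 0.325) for Il1a and -0.07 (SE 0.319) for Il1b. The size of the LPS response itself was not called different either, at -0.68 (SE 0.344, edgeR adjusted p = 0.306) for Il1a and -0.77 (SE 0.339, edgeR adjusted p = 0.211) for Il1b.

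RAW differed from BMDM in Il1a in opposite directions in the 2 states. At rest the RAW level was higher (log2 difference 1.31, SE 0.444, edgeR adjusted p = 0.0129), resting on 15 counts in RAW. After LPS it was lower (log2 difference -2.53, SE 0.0941, edgeR adjusted p = 5.03e-20). The test of the responses themselves put the RAW response of Il1a below that of BMDM (log2 difference -3.84, SE 0.539, edgeR adjusted p = 1.76e-06). Il1b was also lower in RAW after LPS (log2 difference -2.23, SE 0.0663, edgeR adjusted p = 1.99e-22). At rest its BMDM level was 2.25 times that of RAW with an interval of 0.737 to 11.2, not distinguishable with 3 counts, and the difference of the Il1b responses was -1.07 with an SE of 0.944 (edgeR adjusted p = 0.494).

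Il1a and Il1b can be compared with each other only per length, here counts per kilobase of exon. Il1b stood at 1.28 and 1.04 times Il1a in the resting BMDM libraries and at 2.53 and 2.66 times after LPS. In hMPDM the same ratio was 1.07 at rest and 2.27 after LPS, and in RAW 0.207 (0.0384 to 0.732) and 3.20 (2.70 to 3.82). In each of the 3 cell types Il1b was the more abundant of the pair after LPS, and in RAW at rest Il1a was.

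Il1rn, the antagonist, was present before stimulation in all 3 cell types and rose in BMDM. The resting BMDM libraries held 87.9 and 92.2 CPM, the stimulated ones 397 and 376 CPM, means of 90.1 ± 3.05 and 386 ± 15.0 (SD, n = 2), with no overlap between the states. The log2 change was 2.09 (SE 0.0432, edgeR adjusted p = 6.67e-27). The hMPDM libraries went from 32.4 to 236 CPM (ratio 7.27, 6.55 to 8.08), and those of RAW from 259 to 624 CPM (ratio 2.41, 2.24 to 2.59). The order of the cell types was RAW, BMDM, hMPDM in both states.

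That order held against the replicate spread in each test. At rest the hMPDM library was below BMDM (log2 difference -1.48, SE 0.0726, edgeR adjusted p = 1.84e-16) and the RAW library above it (log2 difference 1.52, SE 0.0673, edgeR adjusted p = 8.01e-18). After LPS the differences were smaller and of the same sign, at -0.71 (SE 0.0598, edgeR adjusted p = 8.93e-11) for hMPDM and 0.70 (SE 0.0497, edgeR adjusted p = 3.21e-13) for RAW. The responses differed too. The hMPDM response of Il1rn exceeded that of BMDM by 0.77 on the log2 scale (SE 0.0969, edgeR adjusted p = 1.31e-06), and the RAW response was lower by a log2 difference of -0.83 (SE 0.0822, edgeR adjusted p = 3.17e-09). The hMPDM difference was 0.65 (edgeR adjusted p = 2.60e-05) with the BMDM share taken out, and was not called when a coefficient of variation of 10% was set for all genes (adjusted p = 0.211). The spread fitted from the BMDM pairs was 2.27%.

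**Figure D2:**
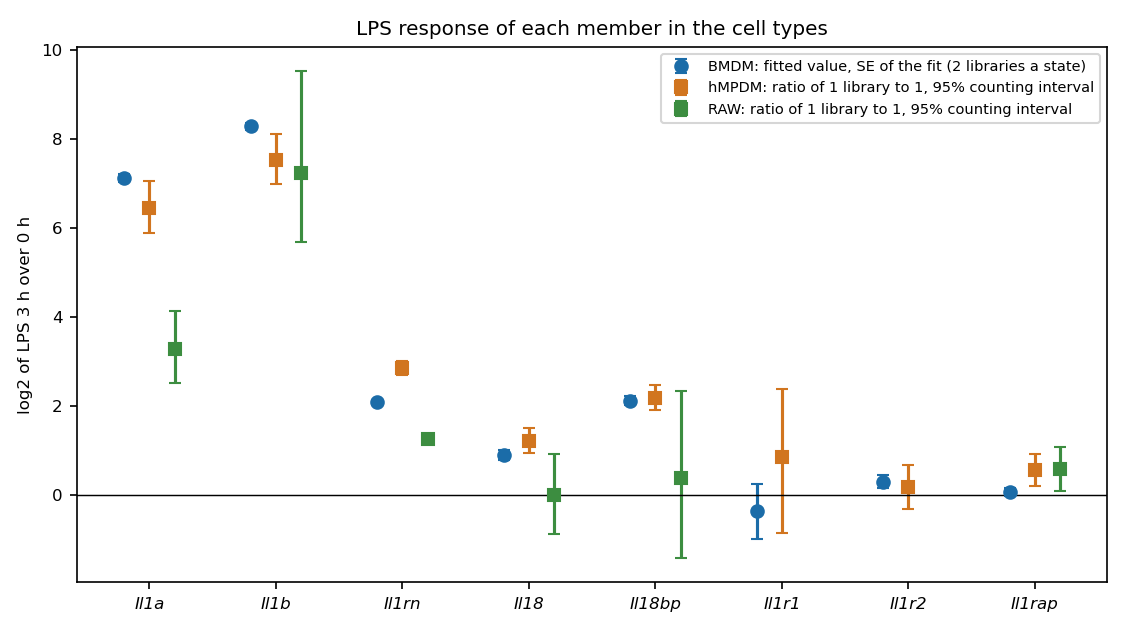
Log2 of the LPS level over the resting level for each member in BMDM (tested, error bars of 1 SE), hMPDM and RAW (1 library a state, not tested, bars for the 95% counting interval). Il1b and Il1a are the highest in each cell type, and Il1rn is highest in hMPDM at a ratio of 7.27 and lowest in RAW at 2.41. RAW points are left out for Il1r1 and Il1r2, with at most 1 count a library.

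The balance of antagonist to agonist per kilobase moved through a wide range. In resting BMDM there were 14.1 and 21.9 Il1rn counts per kilobase for each of Il1b, and after LPS 0.247 and 0.234. In hMPDM this ratio was 6.63 (4.54 to 10.1) at rest and 0.262 (0.242 to 0.284) after LPS. In RAW it was 114 (38.8 to 552) at rest and 1.82 (1.66 to 2.00) after LPS. After LPS, then, Il1b was the more abundant messenger in BMDM and hMPDM, and Il1rn was in RAW. Against Il1a the ratio in BMDM was 18.1 and 22.6 at rest and 0.623 and 0.624 after LPS. In hMPDM it was 7.12 and 0.594, and in RAW 23.5 and 5.84. Taking the BMDM share out of the hMPDM library, a step added to these ratios after the data were seen, left its ratios after LPS at 0.268 to Il1b and 0.588 to Il1a. These ratios divide each count by the length of all exons in the deposited table, 5535 bases for Il1rn, so a gene whose expressed transcript uses fewer of them is understated.

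**Figure D3:**
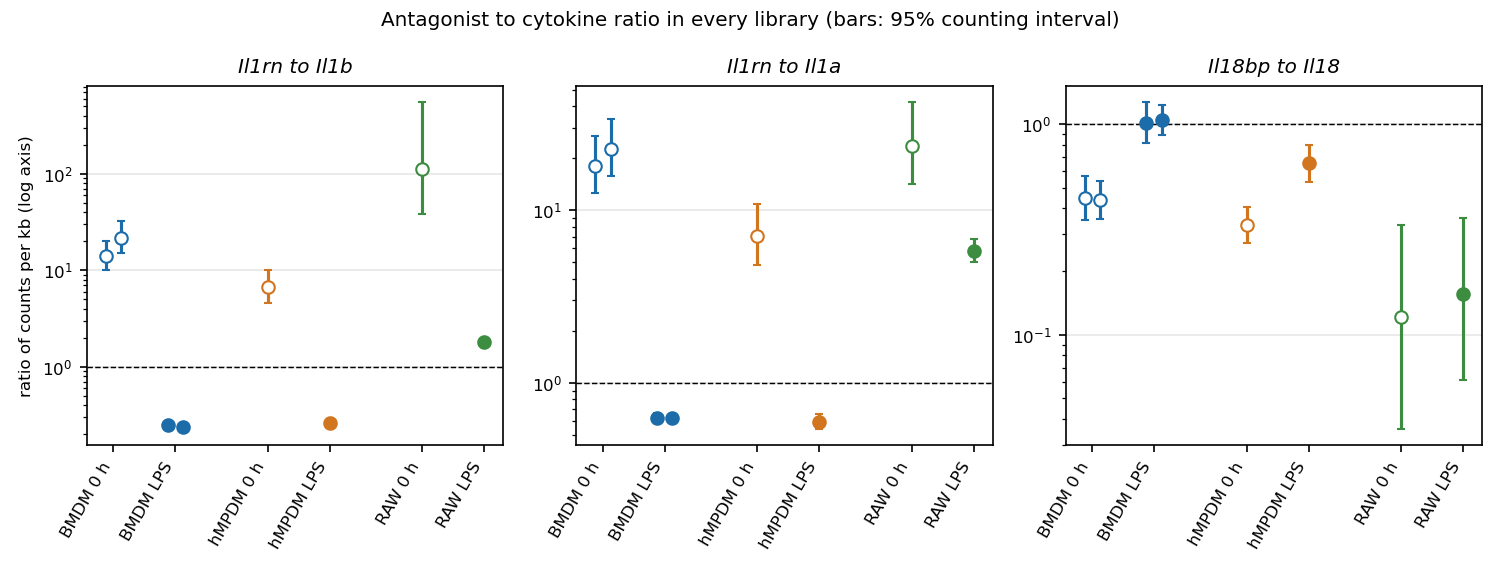
Ratios of counts per kilobase within each library (log axis), for antagonist to cytokine pairs in each cell type at rest (open points) and after LPS (filled points), with bars for the 95% counting interval. Points above 1 have more of the antagonist. The Il1rn to Il1b ratio lies above 6 in all resting libraries and, after LPS, above 1 in RAW alone at 1.82.

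The interleukin 18 pair behaved differently, with the cytokine present at rest and the binding protein rising further. Il18 in BMDM measured 9.09 and 10.1 CPM without stimulus and 18.4 and 17.8 CPM with it, means of 9.61 ± 0.735 and 18.1 ± 0.459 (SD, n = 2). The states do not overlap, and the log2 change was 0.90 (SE 0.110, edgeR adjusted p = 2.87e-08). Il18bp measured 7.95 and 8.67 CPM without stimulus and 36.6 and 36.5 CPM with it, means of 8.31 ± 0.510 and 36.6 ± 0.0338 (SD, n = 2). Its log2 change was 2.13 (SE 0.0941, edgeR adjusted p = 2.10e-18). Per kilobase, on deposited lengths of 714 bases for Il18 and 1400 for Il18bp, Il18bp was 0.446 and 0.437 of Il18 at rest. After LPS it was 1.01 and 1.05 of Il18, so the pair stood about equal over the deposited exons in stimulated BMDM. Those exons leave out the RefSeq starts of both genes, so ratios over whole transcripts may differ.

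In hMPDM, Il18 went from 16.5 to 38.6 CPM, the highest level in each state among the cell types, with a ratio of 2.34 (1.92 to 2.83). Il18bp was 10.8 and 49.3 CPM, a ratio of 4.58 (3.75 to 5.61). The hMPDM library held more Il18 than BMDM at rest (log2 difference 0.77, SE 0.120, edgeR adjusted p = 4.42e-06), a call that DESeq2 did not make (adjusted p = 0.145). After LPS the log2 difference was 1.10 (SE 0.140, edgeR adjusted p = 2.82e-07). Il18bp was higher than in BMDM by 0.37 at rest (SE 0.135, edgeR adjusted p = 0.0321) and 0.43 after LPS (SE 0.114, edgeR adjusted p = 0.00467), and neither call was made by DESeq2 (adjusted p = 0.740 and 0.568). The resting call was also lost without BMDM rest replicate 1 (adjusted p = 0.133). In hMPDM the binding protein reached 0.651 of Il18 per kilobase after LPS, from 0.332 at rest.

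RAW had little of either. Il18 was 5.49 and 5.56 CPM, 21 and 26 counts, with a ratio of 1.01 (0.548 to 1.89), and Il18bp was 1.31 and 1.71 CPM, 5 and 8 counts, with a ratio of 1.31 (0.378 to 5.08). Neither shows a response at this depth. Il18bp was below BMDM at rest (log2 difference -2.66, SE 0.440, edgeR adjusted p = 6.47e-06) and after LPS (log2 difference -4.41, SE 0.274, edgeR adjusted p = 1.29e-14). Il18 was below BMDM after LPS (log2 difference -1.69, SE 0.241, edgeR adjusted p = 4.26e-07). At rest the Il18 difference was -0.81 (SE 0.287, edgeR adjusted p = 0.0167), a call lost with scaling by library size only (adjusted p = 0.0732), with DESeq2 (0.186) and with a coefficient of variation of 10% (0.0510). The smaller response of RAW was not called for Il18 (log2 difference -0.88, SE 0.428, edgeR adjusted p = 0.155) or Il18bp (-1.74, SE 0.839, edgeR adjusted p = 0.157).

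The signalling receptor Il1r1 was at the edge of detection in every library. It had 7 and 13 counts in BMDM at rest, 1 and 7 counts after LPS, 12 and 6 counts in hMPDM and 0 counts in both RAW libraries. The BMDM levels, 0.418 and 0.630 CPM without and 0.151 and 0.553 CPM with LPS, overlap, and the log2 change of -0.36 (SE 0.626, edgeR adjusted p = 0.642) has no settled direction, being 0.054 without BMDM LPS replicate 1. No difference between cell types was called. The 0 counts in RAW allow up to 0.785 CPM at rest and 0.642 CPM after LPS, above the mean of BMDM in each state, so a lower level in RAW was not detectable at this depth.

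The decoy receptor Il1r2 was, per kilobase, more abundant than Il1r1 wherever either was detected with more than 1 count. Both resting BMDM libraries held 7.17 CPM, and the stimulated ones 10.6 and 7.99 CPM, a mean of 9.28 ± 1.83 (SD, n = 2). The hMPDM libraries held 9.14 CPM without and 10.5 CPM with LPS. The BMDM change of 0.31 on the log2 scale (SE 0.148) missed the threshold (edgeR adjusted p = 0.0692), passed it without BMDM LPS replicate 2 (log2 change 0.56, adjusted p = 0.0165), and turned to -0.05 with scaling by library size only. Per kilobase, Il1r2 was 57.2 and 38.0 times Il1r1 in resting BMDM, 233 (40.5 to 9351, on 1 Il1r1 count) and 48.1 times after LPS, and 42.2 and 26.7 times in hMPDM. RAW had 0 counts of Il1r2 at rest, which puts it at least 9.14-fold lower than BMDM with a floor of 3 counts for the library. After LPS it had 1 count, and the BMDM level was 41.5 times higher (7.35 to 1648). Both differences were called (edgeR adjusted p = 4.19e-07 and 4.08e-08).

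Il1rap, the accessory chain that IL1R1 needs, varied least of the members over the 8 libraries. BMDM held 19.2 and 18.1 CPM without and 19.8 and 19.4 CPM with LPS, hMPDM held 14.4 and 21.4 CPM, and RAW 14.7 and 22.0 CPM. The BMDM means were 18.7 ± 0.756 and 19.6 ± 0.303 (SD, n = 2). The BMDM log2 change was 0.07 (SE 0.0933, edgeR adjusted p = 0.541), and it became -0.30 and was called lower (adjusted p = 0.00458) with scaling by library size only, a choice that moves the median BMDM response of all genes by 0.37. In the untested cell types the LPS level was 1.49 times (1.16 to 1.89) and 1.50 times (1.08 to 2.12) the resting level in hMPDM and RAW. The response differed from that of BMDM by 0.50 in hMPDM and 0.52 in RAW on the log2 scale, and neither difference was called. At rest Il1rap was lower in hMPDM than in BMDM (log2 difference -0.37, SE 0.108, edgeR adjusted p = 0.00639), a call that DESeq2 did not make (adjusted p = 0.733).

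Ranked per kilobase in resting BMDM, the order was Il1rn at 16.3 CPM per kilobase, Il18 at 13.5, Il18bp at 5.94, Il1r2 at 3.76, Il1rap at 1.64, Il1b at 0.945 ± 0.259, Il1a at 0.807 ± 0.100 (SD, n = 2) and Il1r1 at 0.0824. Il1b and Il1a do not differ beyond their spread there. After LPS the order was Il1b at 290, Il1a at 112, Il1rn at 69.8, Il18bp at 26.1, Il18 at 25.4, Il1r2 at 4.87, Il1rap at 1.72 and Il1r1 at 0.0554. Il18bp and Il18 are then too close to order. For both genes the deposited exons leave out the RefSeq start, so their places hold for those exons only. On this scale the receptors hold the lowest 3 places after LPS, and both agonists pass from near the bottom to the top. The scale divides by the deposited length of all exons, 5535 bases for Il1rn. A gene whose expressed transcript uses fewer of them is ranked too low. Before that division Il1rn stood at 386 CPM in BMDM after LPS, between Il1b at 554 CPM and Il1a at 221 CPM. In RAW after LPS Il1rn led with 113 CPM per kilobase, ahead of Il1b with 61.8 and Il1a with 19.3.

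Counted over the members, each comparison between cell types can be read against the whole table. For hMPDM against BMDM at rest 2 members were called higher and 2 lower, where 19.0% of all genes were higher and 19.2% lower. After LPS 2 were higher and 3 lower, against 12.5% of all genes called higher and 12.5% lower. For RAW against BMDM at rest 2 were higher and 3 lower, where 27.1% and 31.3% of all genes were, and after LPS 1 was higher and 5 lower, where 29.8% and 36.4% were. Of the tests of the response itself, 1 member was called higher and 0 lower in hMPDM (3.96% and 3.89% of all genes) and 0 higher and 2 lower in RAW (10.0% and 12.7%). At least 4-fold higher after LPS, with at least 5 CPM in the higher library, were 4 members in hMPDM (Il1a, Il1b, Il1rn and Il18bp) against 3.51% of all genes, and 2 in RAW (Il1a and Il1b) against 0.602%. No member was at least 4-fold lower, where 0.907% of all genes were in hMPDM and 0% in RAW. With scaling by library size only, Il18bp dropped below 4-fold in hMPDM (log2 ratio 1.79). With shares this large over all genes, little can be read from most of these counts.

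Other genes of the pathway were taken from 3 lists. Of 13 further family ligands and receptors, 5 could be tested, and Il1f10, Il1f8, Il1f5, Il1f6, Il18r1, Il1rapl1 and Il1rapl2 were not detected beyond 3 counts in all libraries together. Il33 had 10 counts in all. In BMDM after LPS 2 of the 5 rose, Il1f9 (interleukin 36 gamma, log2 change 3.23) and Il18rap (the interleukin 18 receptor's accessory chain, log2 change 0.40), and 0 fell, beside 31.7% and 31.1% of all genes. The ligand-binding chain of that receptor, Il18r1, had 1 count in all 8 libraries. In RAW, Il1rl1, the interleukin 33 receptor, stood at 37.9 and 52.0 CPM, against 2.09, 2.13, 1.66 and 1.27 CPM in BMDM and 2.58 and 0.873 CPM in hMPDM. The RAW level was above BMDM at rest by 4.16 and after LPS by 5.20 on the log2 scale (edgeR adjusted p = 6.20e-17 and 2.30e-19). It was the 1 gene of the list called higher in RAW in either state, while 3 of the 5 were called lower at rest and 4 after LPS, where 31.3% and 36.4% of all genes were lower. Il1rl2, the interleukin 36 receptor, had 0 counts in both RAW libraries, at least 2.73-fold lower than BMDM at rest and at least 3.56-fold lower after LPS (edgeR adjusted p = 0.00125 and 0.000359). Sigirr, an inhibitory receptor, had 1 count in each RAW library, and the BMDM level was 15.5 times (2.75 to 618) and 15.8 times (2.73 to 632) that of RAW (edgeR adjusted p = 0.000193 and 0.000211). Il18rap was lower in RAW with log2 differences of -1.84 at rest and -0.68 after LPS (edgeR adjusted p = 0.000519 and 0.0355). Il1f9, at 0.214 CPM in stimulated RAW against 2.87 and 4.43 CPM in stimulated BMDM, was called lower there (edgeR adjusted p = 0.000159). In hMPDM against BMDM at rest 3 of the 5 were higher and 0 lower, beside 19.0% and 19.2% of all genes: Sigirr (log2 difference 1.35, edgeR adjusted p = 1.45e-07), Il1rl2 (0.91, edgeR adjusted p = 0.00473) and Il18rap (0.59, edgeR adjusted p = 0.00194). After LPS the difference of Sigirr was 0.80 and was not called (edgeR adjusted p = 0.0953).

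Of 10 genes for processing and release of the cytokines, 8 rose and 1 fell in BMDM, beside the 31.7% and 31.1% of all genes, with a median log2 change of 0.86 over the list. Casp4, the caspase that senses intracellular LPS, rose by 3.48, the inflammasome sensor Nlrp3 by 2.80, Casp1 by 1.77 and the DNA sensor Aim2 by 1.45. In hMPDM 3 of the 10 and in RAW 1 of the 10, Nlrp3, were at least 4-fold higher after LPS. The shares over all genes at this fold were 3.51% in hMPDM and 0.602% in RAW. Against BMDM after LPS 0 of the 10 were higher in RAW and 8 were lower, where 29.8% of all genes were higher and 36.4% lower. The largest gap was Pycard (ASC), the adaptor that joins inflammasome sensors to caspase 1. It stood between 54.6 and 79.5 CPM in all BMDM and hMPDM libraries and had 1 and 0 counts in RAW. The BMDM level was 215 times that of RAW at rest (38.5 to 8484), and after LPS RAW was at least 85.9-fold lower. Il1b at 118 CPM in stimulated RAW therefore stands beside nearly no Pycard messenger.

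Of 15 signalling genes below the receptors, 11 rose and 3 fell in BMDM, beside 31.7% and 31.1% of all genes, with a median log2 change of 0.32. The ubiquitin ligase Peli1 rose by 3.69, the adaptor Myd88 by 2.36, the kinase Irak2 by 2.19 and the inhibitory family member Irak3 by 1.92. Toll-like receptor 4 uses the same proteins, so the list is not particular to interleukin 1. In hMPDM 3 and in RAW 1 of the 15, Peli1, were at least 4-fold higher after LPS, against 3.51% and 0.602% of all genes. The difference in response, RAW minus BMDM, was called below 0 for 7 of the 15 and above 0 for 2. Over all genes 12.7% were below and 10.0% above. The differences farthest below 0 were those of Myd88 (-1.47), Peli1 (-1.47), Irak3 (-1.29) and Irak2 (-0.68). Of the 2 above 0, Tollip had a log2 change of 0.15 in BMDM and 0.47 in RAW. Tab1 fell in BMDM (log2 change -0.70) and was at -0.09 in RAW, so its RAW response was not the larger. The RAW values are untested.

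**Figure D4:**
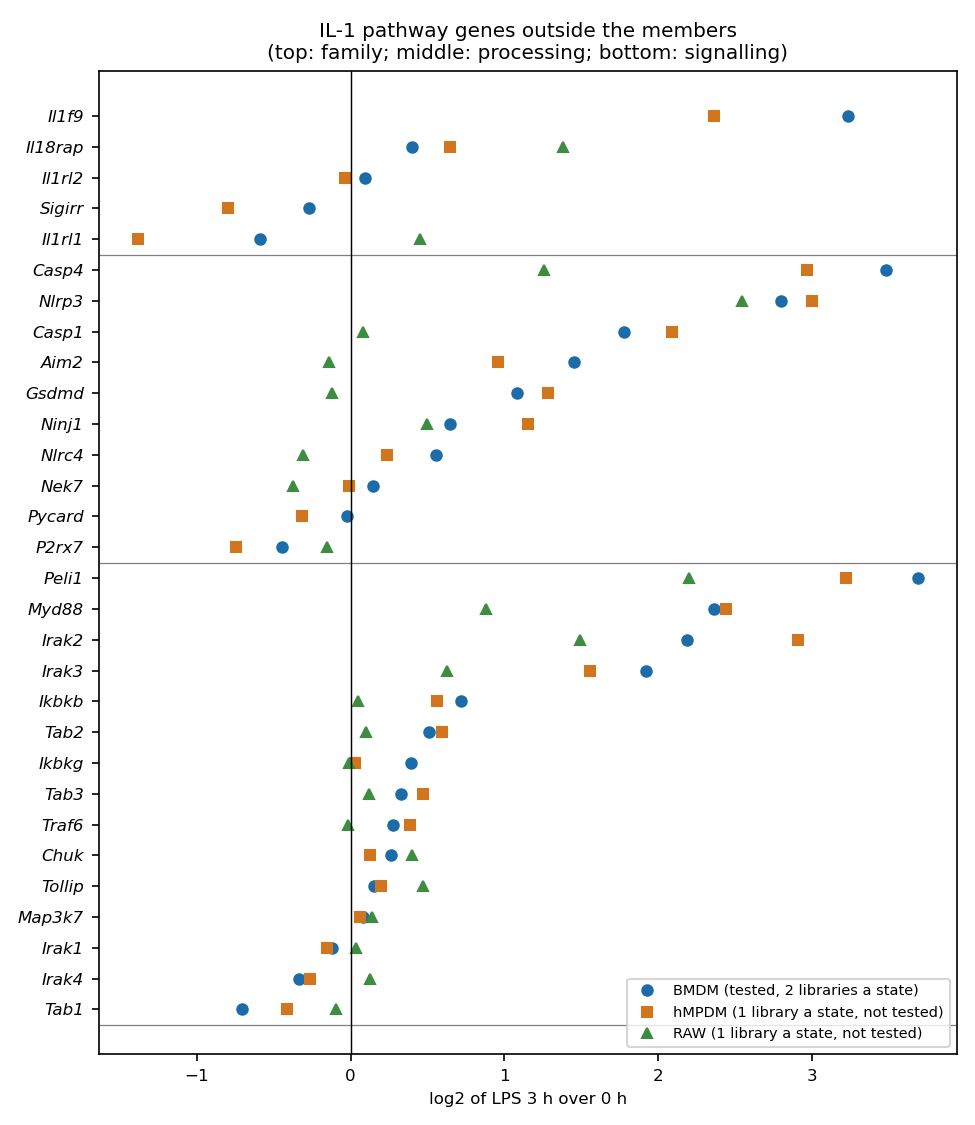
Log2 of the LPS level over the resting level for the tested pathway genes outside the members, in BMDM (tested, 2 libraries a state), hMPDM and RAW (1 library a state, not tested). RAW points are left out for genes with at most 3 counts in both RAW libraries. Casp4 (3.48) and Peli1 (3.69) lie farthest right in BMDM, and most RAW points lie nearer 0.

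For each member the genes with the most similar profile were found by the root mean square difference of gene-centred log2 CPM over the 8 libraries, a description that carries no test. Nearest to Il1a were H2-M2 (0.465), Socs3 (0.476) and Acod1 (0.483), and nearest to Il1b were Cxcl2 (0.633), Acod1 (0.807) and Socs3 (0.990). The lists of both agonists thus share Acod1, the enzyme that makes itaconate, and Socs3, an inhibitor of cytokine signalling. Il1a ranked 6 for Il1b, and Il1b 28 for Il1a. Nearest to Il1rn were Dram1 (0.233), F10 (0.365) and Spaca6 (0.388), and no member came near. Il18 was nearest to Lgals9 (0.190), Csf3r (0.192) and Rubcnl (0.204), where Csf3r is also 1 of the neutrophil markers whose sum moved with LPS. Il18bp was nearest to Cysltr2 (0.275), Eva1b (0.314) and Armcx6 (0.352), and Il1rap to Ccs (0.0933), Fbxo46 (0.104) and Psmf1 (0.107). Il1r1, at a few counts, was nearest to Pcdhga8, Gm13166 and Scd4, and Il1r2 to Gm13012, Gm6634 and Trim5.

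Some counts could hold reads of other genes. Exons of Il1a overlap 222 bases of Gm14023, those of Il1b 25 bases of Il1bos and those of Il1rap 552 bases of Gm20319, all on the opposite strand, and whether counting used strand is not given in the sources used here. Those neighbours had 28, 31 and 1 counts in all 8 libraries together, and reads in the shared bases may have been given to either gene or to none. The neutrophil markers that moved with the agonists in BMDM and hMPDM were nearly absent from RAW apart from Csf3r and S100a8, and their part in the results was not tested.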

How the data were processed

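The deposited table holds raw counts of reads per gene, unnormalized, which the authors made with cutadapt, STAR, SAMtools, bedtools and featureCounts on mm10, per the submitters' processing notes. Neither annotation release nor strand setting is given in the sources used here. Libraries were polyA-selected, made with a stranded kit and sequenced from one end, per the labels' protocols. Of its columns 8 were matched to samples, and 2 that matched none were not used. Gene IDs were matched to symbols without their version (42462 of 43346, 884 unmatched). Genes passing filterByExpr (12461, all 8 members among them) were fitted with edgeR 4.0.16 in R 4.3.3, by quasi-likelihood, with TMM scaling, 1 coefficient for each of 6 groups and 2 residual degrees of freedom, all from the BMDM pairs. P-values were adjusted by Benjamini-Hochberg over all genes tested and called under 0.05. The fit was tested on simulated data. Single libraries were compared by exact Clopper-Pearson intervals at 95%. Log2 ratios used a prior count of 2, and the floor for a count of 0 was 3 counts. The share taken out of the hMPDM LPS library came from genes with at least 5 CPM in every BMDM library and no more than 5% of that level in resting hMPDM. Alternatives were other scaling, filters, DESeq2 1.42.0, a coefficient of variation of 10%, a replicate block and leaving out each BMDM library. The members and lists were chosen with earlier results of these data known. All members are named. Of each list at most 4 called genes with the largest log2 change are named, together with undetected genes, in most comparisons told. For RAW against BMDM after LPS every called gene of the family list is named. Some list comparisons are given by their counts alone, and for RAW against BMDM the processing list is named by Pycard, its largest change. For the response difference between RAW and BMDM the signalling list is named by the 4 called genes farthest below 0 and by those above 0, Tollip and Tab1. For each member the 3 genes of most similar profile are named. Upstream sequences are from RefSeq (GRCm38.p6), which held all 8 members. Gene spans of 6 of the 8 members are the same in GENCODE mouse release 21.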

Additional observations from a re-analysis of the deposited data

Results flagged for a closer look

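For 2 members the LPS response differed between cell types by the test of the difference itself (edgeR, Benjamini-Hochberg over all genes tested). The response of Il1rn exceeded that of BMDM in hMPDM by 0.77 on the log2 scale (adjusted p = 1.31e-06), from 32.4 to 236 CPM in the hMPDM libraries against means of 90.1 and 386 CPM in BMDM. That call was lost with a coefficient of variation of 10% for all genes (adjusted p = 0.211). In RAW it was smaller than in BMDM (log2 difference -0.83, adjusted p = 3.17e-09), from 259 to 624 CPM. The response of Il1a was smaller in RAW than in BMDM (log2 difference -3.84, adjusted p = 1.76e-06), from 3.92 to 38.1 CPM against means of 1.59 and 221 CPM. Each rests on 1 library a state outside BMDM.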

How the results depend on the processing

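Of 654 alternative values of single members and ratios, 623 kept their direction and their side of the threshold or their size, 12 lost a call, 4 gained one, 10 changed sign and 5 moved by more than the spread. The cause was not tested in any case. For hMPDM against BMDM at rest, 4 members were called, but 1 with DESeq2 (Il1rn) and 2 with a coefficient of variation of 10% (Il1rn and Il18). For the difference in response between hMPDM and BMDM, 1 member was called and 0 with that coefficient of variation, against 1 with DESeq2. With scaling by library size only, the BMDM change of Il1r2 was -0.054 and that of Il1rap -0.30. With the replicate block, the resting difference of Il1a between hMPDM and BMDM was -0.0088, and Il1r2 was called in BMDM (log2 change 0.33, adjusted p = 0.0464), making 6 members called in place of 5. The BMDM numbers are shared only as numbers, and same-numbered libraries did not deviate together (correlation -0.03). Leaving out each BMDM library in turn, the resting difference of hMPDM from BMDM ran from -0.095 to 0.15 for Il1a and from -0.35 to 0.21 for Il1b, the difference after LPS from -0.017 to 0.39 for Il1r2, and the difference in response from -0.0040 to 0.13 for Il18bp and from -0.37 to 0.036 for Il1r2. Il1r1 passed the filter in 1 of the 4 such fits, with a BMDM change of 0.054 and a RAW response difference of -0.054. Depth limits Il1r1 in all libraries, and Il1b at rest, Il18bp and Il1r2 in RAW.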
